A study of Mus musculus with 17 samples.

Results

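Cytosolic ribosomal protein genes encode the proteins that, together with ribosomal RNA, build the large and the small subunit of the cytoplasmic ribosome. They were taken by name: symbols starting with Rpl or Rps and a digit, plus Rplp0, Rplp1, Rplp2 and Rpsa, without pseudogenes, without the ribosomal S6 kinases and, in the macrophage tables, only where the gene was listed as protein coding. The rule found 89 gene symbols in all, of which 52 belong by name to the large subunit and 35 to the small subunit. The other 2, Rps19bp1 and Rps23rg1, carry a ribosomal protein's name but encode no ribosomal protein. The tables list 84 of them among 19782 genes for the knockout experiment, 81 among 17130 for the CXCR4 sort, 83 among 18909 entries for the culture experiment and 86 among 27040 entries for basal cells, and 79 are in all 4. The gene of ribosomal protein S3a is listed as Rps3a1 in the macrophage tables and as Rps3a in the basal cell table. It therefore counts as 2 of the 89 symbols and is not among the 79.

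The RNA came from the mammary gland of virgin mice, in 17 libraries of 12 groups. Macrophages sorted on F4/80 and CD11b were compared between LysmCre+ Cxcr4fl/fl and LysmCre+ mice, where Lysm-Cre acts in myeloid cells, and between K8Cre+ Cxcl12fl/fl and K8Cre+ mice, where K8-Cre acts in luminal epithelium. Each of these 4 groups had 2 libraries, numbered as repeats, and all 4 carried a Cre. The chemokine CXCL12 signals through CXCR4, so one knockout removed the receptor in the macrophages and the other the ligand in neighbouring cells. Wild-type macrophages were sorted further into a CXCR4-positive fraction, with 2 libraries, and a CXCR4-negative fraction, with 1. Other wild-type macrophages were cultured in RPMI medium with 2% FBS and received recombinant CXCL12 together with the AKT kinase inhibitor GSK690693, the inhibitor alone, CXCL12 alone or neither, with 1 library each. Dose and time in culture are not given in the sources used here. The last pair, 1 library each, was the basal population called P4, sorted as Lin-CD24+CD29hi from K8Cre+ Cxcl12fl/fl and from K8Cre+ mice.

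Ribosomal protein mRNAs are usually among the most abundant mRNAs of a cell, and the proteins are made in near-equal amounts. Most begin with a terminal oligopyrimidine tract, a C followed by a run of C and T at the first transcribed bases. Through this tract the kinase mTORC1, which acts downstream of AKT, raises their translation, with the protein LARP1 as its repressor. The mRNA level and the translation of these genes are therefore separate quantities, and the libraries measured only mRNA.

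The start-site windows below show what such a tract looks like in members described later. They run from 10 bases before to 20 bases after the RefSeq start on build GRCm38.p6, 5′ to 3′ on the gene's strand, with the tract in capitals where it begins exactly at the start.
Rps6, chr4:86857348-86857377, minus strand: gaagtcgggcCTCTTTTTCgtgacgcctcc
Rps18, chr17:33955646-33955675, minus strand: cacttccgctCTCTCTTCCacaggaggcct
Rplp2, chr7:141447641-141447670, plus strand: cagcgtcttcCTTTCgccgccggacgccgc
Rpl15, chr14:18270967-18270996, minus strand: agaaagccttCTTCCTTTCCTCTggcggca
Rps27, chr3:90213629-90213658, minus strand: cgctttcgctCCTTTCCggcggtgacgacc
Rps27rt, chr9:114982720-114982749, minus strand: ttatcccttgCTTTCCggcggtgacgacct
Rpl13a, chr7:45128726-45128755, minus strand: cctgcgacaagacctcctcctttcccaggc
Rplp0, chr5:115559457-115559486, plus strand: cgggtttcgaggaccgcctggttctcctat
Rps6, the kinase substrate of the small subunit, Rps18 and the stalk protein gene Rplp2 begin with the tract. The Rpl13a window holds a pyrimidine run a few bases inside the start, and the Rplp0 window holds none at the start. RefSeq promoter entries matched 67 of the 89 symbols, with 79 entries. A C followed by at least 4 bases that are C or T, searched on the gene's strand only, stood exactly at the start in 14 of the 79 entries, which is 17.7%, against 2.51% of all 32851 promoter entries. Within 5 bases before to 10 bases after the start, 41.8% of the members' entries and 18.3% of all entries held it.

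Rps27 and Rps27rt show a second feature of this gene family, the intronless copy. Below are the first 60 coding bases of Rps27 (chr3:90212522-90213651, minus strand), of its retrotransposed copy Rps27rt (chr9:114982366-114982739, minus strand) and of the paralog Rps27l (chr9:66946086-66949516, plus strand) on GRCm38, with capitals where a base differs from Rps27.
Rps27: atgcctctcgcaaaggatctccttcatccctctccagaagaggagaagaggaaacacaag
Rps27rt: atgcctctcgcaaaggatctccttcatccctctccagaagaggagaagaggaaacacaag
Rps27l: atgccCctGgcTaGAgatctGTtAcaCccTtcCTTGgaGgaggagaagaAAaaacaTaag
The copy Rps27rt has the same 255 coding bases as Rps27, while Rps27l shares 76.1% of its aligned coding bases. Reads from the coding part of Rps27 and Rps27rt cannot be told apart. The coding sequences of Rpl36al and Rpl36a were 87.9% identical, those of Rpl39l and Rpl39 85.3%, of Rpl10l and Rpl10 84.8%, of Rpl3l and Rpl3 73.2%, of Rpl22l1 and Rpl22 66.9% and of Rpl7l1 and Rpl7 52.8%.

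The deposited macrophage values are log2 values of CPM, the reads of a gene scaled to a fixed library total, and all levels here are CPM unless stated otherwise. The steps between low values put the depth, in 1e6 reads per library, at 8.60 to 37.2. Macrophage markers, 8 genes that include Adgre1, Csf1r and Cd68, summed to 1781 to 4098 CPM in the knockout table, 1770 to 6740 CPM in the sort and 963 to 1227 CPM in culture. The 2 endothelial markers, Pecam1 and Cdh5, summed to 1093 to 1330 CPM in the cultured libraries, against 0.703 to 93.6 CPM in the knockout table and 66.4 to 88.7 CPM in the sort. In P4 basal cells the basal markers summed to 4949 to 6476 FPKM and the 6 macrophage markers listed to 7.69 to 10.1 FPKM. Cxcr4 was at 232 and 140 CPM in the Cxcr4 knockout and at 819 and 318 CPM in its LysM-Cre control, in repeats 1 and 2. Cxcl12 stood at 58.2 and 164 CPM in macrophages of the Cxcl12 knockout and at 11.7 and 149 CPM in those of its control, cells that K8-Cre does not target. In P4 cells Cxcl12 was at 350 FPKM in the library labelled Cxcl12 knockout and at 270 FPKM in the control. In bulk samples, fewer cells of a type and less RNA per cell cannot be told apart.

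All members together made up at most 1.32% of a macrophage library, and the 4 libraries numbered repeat 2 held less of them than the 4 numbered repeat 1. The summed share was 0.920% and 0.519% in the Cxcr4 knockout (repeats 1 and 2) and 1.32% and 0.563% in the LysM-Cre control. It was 0.737% and 0.640% in the Cxcl12 knockout and 0.931% and 0.680% in the K8-Cre control. Every repeat 2 library lay below every repeat 1 library, while the ranges of knockout and control overlapped in both Cre lines. Within each repeat the knockout library lay below its control, in 4 of 4 pairs, and this sign was not tested. The CXCR4-positive libraries held 0.364% and 0.474%, against 0.722% in the CXCR4-negative library. In culture the share was 0.344% with CXCL12 and the inhibitor, 0.360% with the inhibitor, 0.289% with CXCL12 and 0.265% without either. Large-subunit genes summed to 1.19 to 1.57 times the small-subunit genes in the knockout table.

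**Figure D1:**
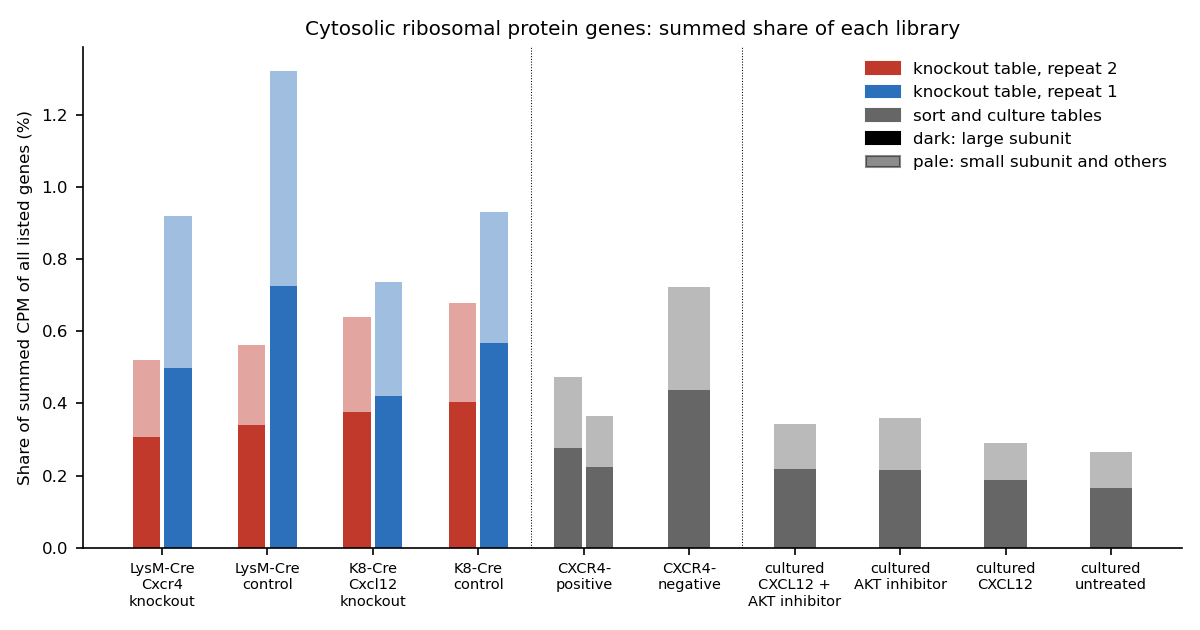
Summed share of the cytosolic ribosomal protein genes in the CPM of all listed genes (%, vertical axis) for each macrophage library, 1 bar per library, with the large subunit in the dark part and the small subunit and others in the pale part. Each red bar (repeat 2, 0.519% to 0.680%) is lower than every blue bar (repeat 1, 0.737% to 1.32%) of the knockout table.

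Levels differed widely between members. Per kilobase of annotated transcript, the mean over the 8 knockout-table libraries was highest for Rpl41, the shortest ribosomal protein, at 698 CPM per kb, and Rpl4 stood at 437 CPM per kb. The lowest were Rps26 at 1.18 and Rpl17 at 1.46 CPM per kb, although both proteins are core components of the ribosome. The stalk genes, whose products recruit the elongation factors, also spread: Rplp1 stood at 379, Rplp0 at 343 and Rplp2 at 36.2 CPM per kb. Members under 1 CPM numbered 3 to 8 in repeat 2 libraries and 6 to 21 in repeat 1 libraries, and 15 of the 84 members were at 0 in at least 1 library of the table. The order of members was alike between tables sorted in the same way, with a Spearman rho of 0.926 between the mean levels of the knockout and CXCR4 tables over 81 genes. It was 0.674 between the knockout and the culture table over 81 genes, and the start positions in the culture table matched the annotation of the other tables for 1 of 83 members.

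**Figure D2:**
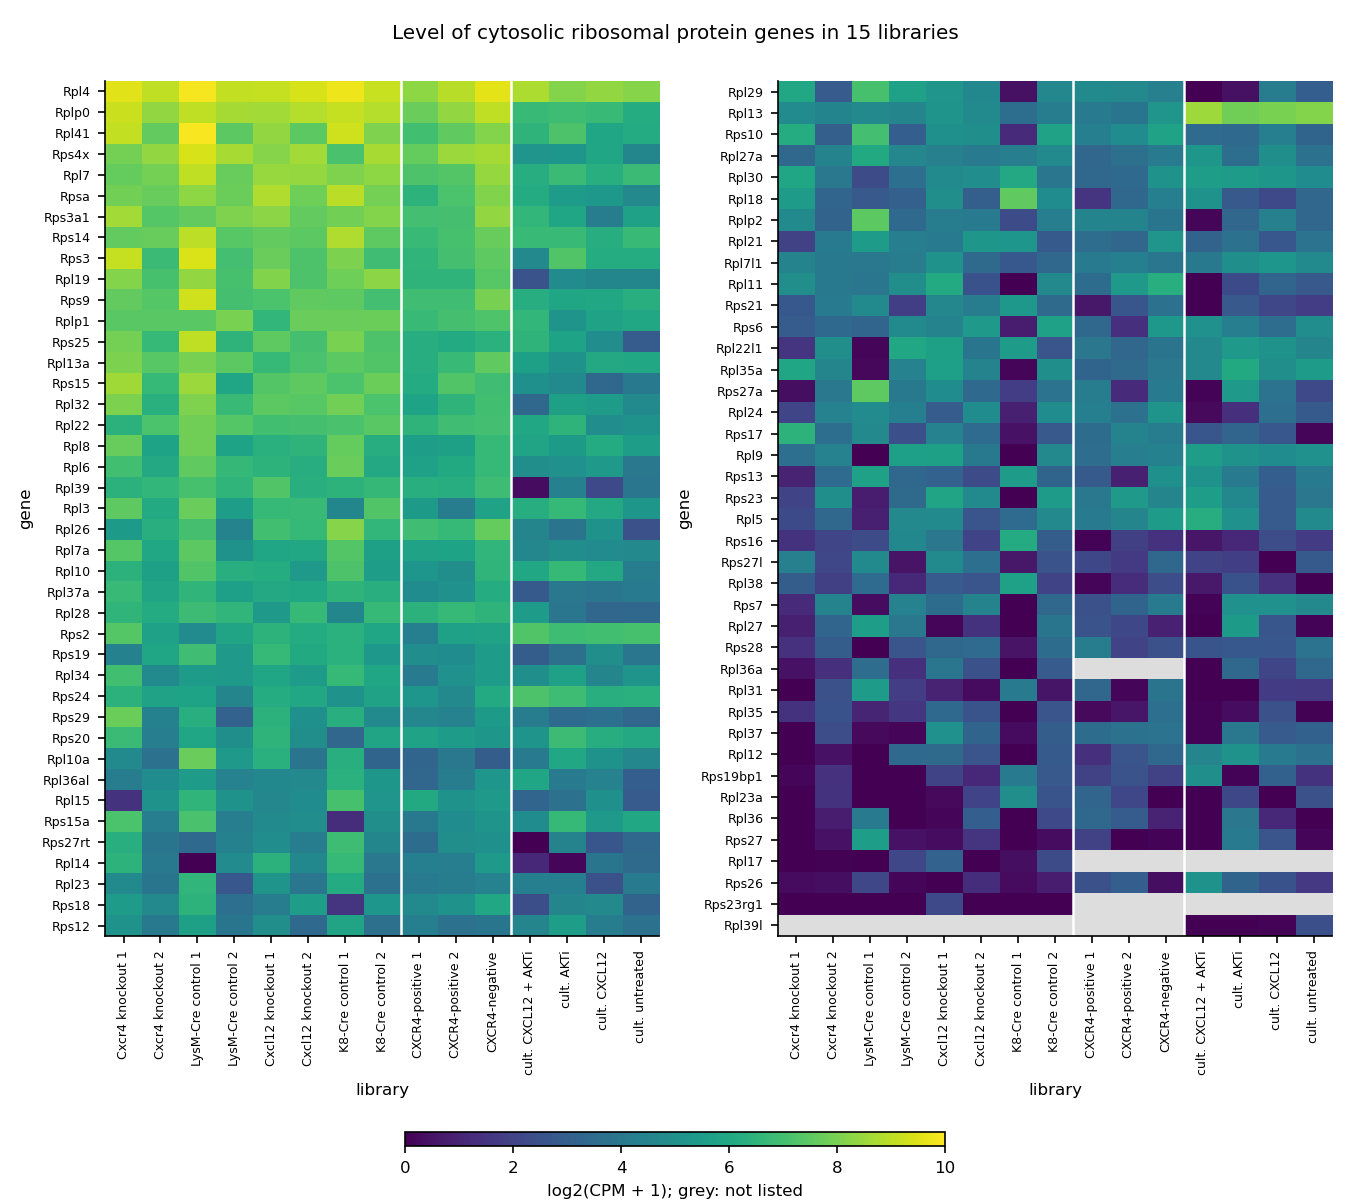
Level of 81 cytosolic ribosomal protein genes (rows, highest mean in the knockout table first) in the 15 macrophage libraries (columns), as log2(CPM + 1), with grey for genes not listed in a table. Rpl4 and Rplp0 are high in all columns, Rpl27 runs from 0 to 48.2 CPM within the knockout table, and Rpl13 is at 229 to 374 CPM in culture but at 11.3 to 35.4 CPM in the knockout table.

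The steadiest members with a mean of at least 100 CPM were Rplp0, Rpl4 and Rplp1. Rplp0, the scaffold of the stalk, was at 581 and 333 CPM in the Cxcr4 knockout and 522 and 400 CPM in the LysM-Cre control, and at 388 and 473 CPM in the Cxcl12 knockout and 549 and 476 CPM in the K8-Cre control. Its coefficient of variation over the 8 libraries was 18.4%, against 23.3% for Rpl4 and 24.5% for Rplp1. Among the least steady of the same rank were Rps3, with 79.8%, and Rps9, with 75.5%. For Rps9 a single library stood apart: the LysM-Cre control of repeat 1 stood at 622 CPM and the other 7 libraries at 127 to 191 CPM. Over all 84 members the median coefficient of variation was 79.2%.

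Paralogs expressed in few tissues were low or not listed. Rpl39l, known from testis, was at 4.45 CPM in the untreated culture and at or near 0 in the other 3 cultures, and was at 0 FPKM in both P4 libraries, as were the paralogs Rpl3l and Rpl10l. Rpl22l1, the paralog of Rpl22, was erratic in the knockout table: 1.94 and 29.7 CPM in the Cxcr4 knockout, 0.0913 and 62.5 CPM in its control, 50.03 and 13.9 CPM in the Cxcl12 knockout and 45.4 and 5.30 CPM in its control. Its parent Rpl22 was at 84.8 to 227 CPM in the same libraries. Rpl7l1 stood at 5.81 to 34.2 CPM beside 198 to 523 CPM for Rpl7. Rps27 was at 0 to 1.90 CPM in all libraries of that table except the LysM-Cre control of repeat 1, with 48.2 CPM, while Rps27rt, with the same coding sequence, was at 9.60 to 117 CPM. In P4 cells, where Rps27rt is not listed, Rps27 was at 141 FPKM in the library labelled Cxcl12 knockout and at 115 FPKM in the control.

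Loss of Cxcr4 in macrophages moved no ribosomal protein gene past the test. Of 83 members tested with limma on log2(CPM + 1), 0 passed an adjusted p of 0.05 (Benjamini-Hochberg over 17275 genes), against 0.00579% of all genes. The median log2 change of members was -0.19, against 0.14 for all genes. Above 0 were 37 of 83 members, beside 57.7% of all genes. At an unadjusted p under 0.05 there were 5 members, beside 3.33% of all genes. Rps27a (-3.57), Rps27 (-2.80), Rpl15 (-2.49) and Rpl10a (-2.30) were lower in the knockout, beside 1.16% of all genes, and Rpl14 (2.83) was higher, beside 2.16%. Rpl10a was lower in both repeats, with a log2 change of -2.97 in repeat 1 and -1.63 in repeat 2. Rpl15 (-5.05 and 0.07) and Rpl14 (6.45 and -0.78) were not alike in the repeats. Rps27a, which encodes ubiquitin fused to a small-subunit protein, illustrates what some of these values rest on. It was at 0.292 and 15.2 CPM in the knockout (repeats 1 and 2) and at 181 and 15.3 CPM in the control, so the repeat 2 libraries were alike. Rps27, summed with its copy Rps27rt of the same coding sequence, had 78.9 and 14.1 CPM in the knockout. The control had 57.8 and 20.5 CPM, so the sum was higher in the knockout of repeat 1 and lower in that of repeat 2. The steady members had narrower intervals: the change of Rplp0 was -0.06 (95% interval -0.97 to 0.86) and that of Rpl4 -0.19 (-1.06 to 0.68). At the ends of the ranking among members of at least 10 CPM, Rpl27 stood at -2.73 (SE 1.92), Rpl30 at 1.97 (SE 1.17) and Rpl35a at 2.88. The interval lay within 2-fold for 1 of the 83 members, so the intervals of the other 82 members reach past a 2-fold change. Within repeat 1 the median log2 change of members was -0.33 and within repeat 2 it was -0.01.

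Loss of Cxcl12 in the luminal cells gave the same count. Of 83 members 0 passed in macrophages from these mice (limma, adjusted p under 0.05), beside 0 of 17275 genes, and 491 genes, or 2.84%, were under 0.05 before adjustment (2.4% higher, 0.44% lower). The median log2 change of members was 0.07, against 0.36 for all genes, and its direction turned with the scaling: it was -0.15 under median-ratio and -0.03 under quantile scaling, -0.03 with a pseudocount of 0.1 CPM and -0.15 with pseudogenes added to their parents. Rpl29 was the only member with an unadjusted p under 0.05, at 2.42 (SE 1.17), with 36.5 and 24.5 CPM in the knockout (repeats 1 and 2) and 0.349 and 23.9 CPM in the control. The ends of the ranking were Rpl23a (-2.62, SE 1.54), Rpl18 (-2.22, SE 1.21) and Rps19bp1 (-1.87, SE 1.57), and Rpl37 (2.52, SE 1.77), Rps23 (2.54, SE 1.66) and Rps27l (2.59, SE 1.83). Within repeat 2 the median log2 change of members was -0.07 and the spread over members 0.79 (SD), against a median of 0.07 and an SD of 2.32 within repeat 1. The difference between both knockout changes was not past the test for any of the 83 members, with 0.00579% of all genes past it. Rps27a (-4.88, SE 2.13), Rpl29 (-4.42, SE 1.65) and Rps27 (-3.56, SE 1.92) stood lowest, and Rps19bp1 (2.67, SE 2.21), Rpl23a (3.35, SE 2.18) and Rpl18 (3.66, SE 1.71) highest. The value of Rps27 leaves out its copy Rps27rt. Their sum was at 29.0 and 19.9 CPM in the Cxcl12 knockout (repeats 1 and 2) and at 117 and 23.3 CPM in its control. Rps27a, Rpl29 and Rpl18 had an unadjusted p under 0.05, beside 2.48% of all genes (0.955% higher and 1.52% lower). The summed share of the members gave an exact two-sided permutation p of 0.667 in each Cre line, where 2 libraries against 2 cannot go below 0.333; this test leaves the repeats out of account.

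Between the numbered repeats some members did pass the test. Rpl41, Rps3 and Rps29 fell in repeat 2 (limma with the 4 group means in the model, adjusted p of 0.00260, 0.00936 and 0.0371), which is 3 of 83 members against 0.266% of all genes called lower and 0.533% called in either direction, and 0 members rose. Rps3, a protein at the mRNA entry channel, was at 111 and 129 CPM in the Cxcr4 knockout and LysM-Cre control of repeat 2 and at 148 and 122 CPM in the Cxcl12 knockout and K8-Cre control, against 552, 696, 208 and 262 CPM in the same groups of repeat 1. Rpl41 stood at 177 to 267 CPM in repeat 2 and at 328 to 953 CPM in repeat 1, a log2 change of -1.49 (SE 0.30). Rps29, a zinc-binding protein of the small subunit, was at 7.87 to 31.7 CPM in repeat 2 and at 76.8 to 215 CPM in repeat 1, a log2 change of -2.36 (SE 0.58). None of these ranges overlapped. In all, 9 members were lower in every repeat 2 library than in every repeat 1 library (2.87% of all genes), among them Rpl23, Rpl32, Rpl38, Rps12 and Rps25, and 0 were higher throughout (5.66% of all genes). At an unadjusted p under 0.05, 18 members were lower and 4 (Rps7, Rps23, Rpl9 and Rps6) higher, beside 3.16% and 7.18% of all genes and 10.3% in either direction. With the CPM of their pseudogenes added, Rpl9 and Rps6 stood the other way. Rpl9 then had 419 to 528 CPM in repeat 2 and 563 to 857 CPM in repeat 1. Rps6 had 196 to 267 CPM in repeat 2 and 287 to 604 CPM in repeat 1. Rpl10a (-2.22, SE 0.64) followed Rps29 at the low end, and Rps7 (2.93, SE 1.23), Rps23 (2.51, SE 1.12) and Rpl9 (2.37, SE 1.12) stood at the high end. The median log2 change of members was -0.39, against 0.34 for all genes. Each library left out in turn gave 0 to 5 calls, with 0 calls without the LysM-Cre control of repeat 1, 1 call without either Cxcr4 knockout library or the Cxcl12 knockout of repeat 2, and 5 without the K8-Cre control of repeat 1. The median of members stayed below 0 in each of these fits and under median-ratio (-0.49) and quantile (-0.51) scaling, but only 1 call was left under quantile scaling or with a pseudocount of 0.1 CPM, and 0 without the trend. The labels give the repeats only as numbers. Depth, in 1e6 reads, was 20.1 to 37.2 in repeat 2 and 8.60 to 16.8 in repeat 1, and the part of depth in these differences was not tested. The 3 neutrophil markers S100a8, S100a9 and Ly6g summed to 0.0497 to 25.8 CPM in repeat 2 and to 49.9 to 159 CPM in repeat 1, again without overlap, and their part was not tested either. Of these 3 markers, 2 were at 0 in the LysM-Cre control of repeat 2, and 1 was at 0 in each of the Cxcr4 knockout of repeat 2 and the Cxcl12 knockout and K8-Cre control of repeat 1.

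The members' share fell in repeat 2 to 0.519% to 0.680%, against 0.737% to 1.32% in repeat 1 (exact two-sided permutation p = 0.0286, the smallest that 4 libraries against 4 allow). Small nucleolar RNAs, which guide the modification of ribosomal RNA and are often carried in introns of ribosomal protein genes, moved the other way: they made up 9.09% to 15.4% of repeat 2 libraries and 0.916% to 2.54% of repeat 1 libraries. Among the members, 30 of the 83 with an annotation hold snoRNAs, and 51 of these snoRNAs are listed. Their sum was 2639 to 4162 CPM in repeat 2 and 1233 to 3031 CPM in repeat 1, ranges that overlap (exact permutation p = 0.114). It was 1.08 to 1.86 times that of the host genes in repeat 2 and 0.364 to 0.781 times in repeat 1 (exact permutation p = 0.0286), a ratio that also holds the lower host genes. The host genes summed to 1948 to 2447 CPM in repeat 2 and to 3044 to 5030 CPM in repeat 1. As a share of protein-coding genes only, the members were at 0.687% to 0.879% in repeat 2 and at 0.845% to 1.53% in repeat 1, ranges that overlap, with an exact permutation p of 0.0571.

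**Figure D3:**
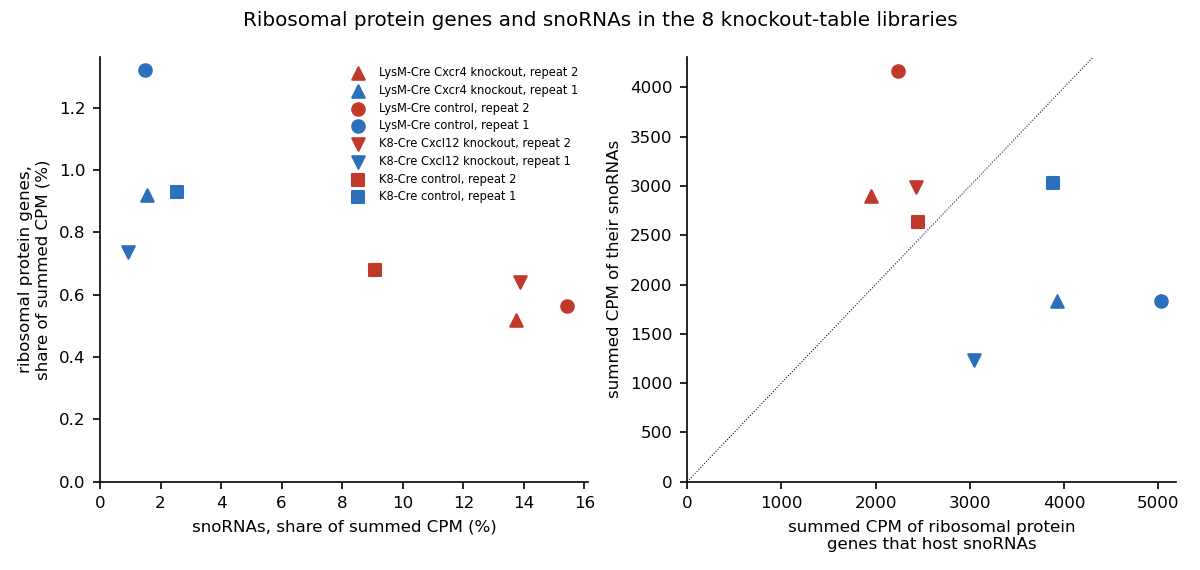
The 8 knockout-table libraries, with repeat 2 in red and repeat 1 in blue and 1 symbol per group; left, share of the ribosomal protein genes against share of all snoRNAs (% of summed CPM), and right, summed CPM of the snoRNAs carried in ribosomal protein genes against that of their host genes, with a dotted line of equality. The 4 repeat 2 libraries lie above the line and the 4 repeat 1 libraries below it.

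In the libraries sorted by CXCR4, some ribosomal protein genes were lower in the CXCR4-positive macrophages, in a fit with 1 CXCR4-negative library. Of 79 members tested, 10 passed as lower (limma, adjusted p under 0.05 over 14411 genes) and 0 as higher, against 3.4% of all genes called lower, 5.06% called higher and 8.46% called in either direction. They were Rps3a1, Rpsa, Rps6 and Rps13 of the small subunit and Rpl4, Rpl7, Rpl10, Rpl11, Rpl13a and Rplp0 of the large subunit. The median log2 change of members was -0.81, against -0.20 for all genes, and 58 of 79 members were lower in both CXCR4-positive libraries than in the CXCR4-negative one, beside 44.6% of all genes. Another 9 were higher in both, beside 32.1%. At an unadjusted p under 0.05, 28 were lower and 1, Rpl23a, was higher, beside 9.6% and 9.35% of all genes and 19% in either direction.

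Among the small-subunit genes, Rps3a1, whose product sits near the mRNA exit, was at 127 and 131 CPM in the CXCR4-positive libraries, against 333 CPM in the CXCR4-negative library, a log2 change of -1.36 (SE 0.35, adjusted p = 0.00208). Rpsa, also known as the laminin receptor precursor, was at 87.1 and 141 CPM, against 276 CPM, with a log2 change of -1.31 (SE 0.35, adjusted p = 0.00452). For both genes the lone CXCR4-negative library stood well above either CXCR4-positive one. Rps6, the classical substrate of S6 kinase, was at 9.12 and 1.57 CPM in the CXCR4-positive libraries and at 38.8 CPM in the CXCR4-negative one, and Rps13 at 6.20 and 0.849 CPM and at 31.5 CPM. These levels are low and the CXCR4-positive libraries disagree several-fold, with SEs of 0.86 and 0.98 on the log2 scale.

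Among the large-subunit genes, Rplp0 was at 210 and 330 CPM in the CXCR4-positive libraries and at 521 CPM in the CXCR4-negative one (log2 change -0.98, SE 0.33, adjusted p = 0.0391). Rpl4, with the highest level in each of the 3 libraries, was at 311 and 482 CPM and at 777 CPM (-1.0, SE 0.33, adjusted p = 0.0315). Rpl11, which with Rpl5 can bind and inhibit the p53 ligase Mdm2 when ribosome assembly fails, was at 10.5 and 40.2 CPM and at 78.1 CPM (-1.86, adjusted p = 0.00595). Its partner Rpl5 was at 16.8 and 22.6 CPM and at 44.6 CPM, a log2 change of -1.15 with an adjusted p of 0.231. Rpl13a, part of an interferon-regulated translation silencing complex in human monocytes, was at 73.4 and 105 CPM and at 185 CPM (-1.07, adjusted p = 0.0478). Rpl7 (-1.14) and Rpl10 (-1.46) passed as well. Rpl31 (-2.15, SE 1.11), next lowest after Rps13 and Rps6, did not. The members at the other end, Rpl10a (0.68, SE 0.84), Rps28 (0.64, SE 0.98) and Rplp2 (0.64, SE 0.64), had adjusted p of 0.646 to 0.777.

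**Figure D4:**
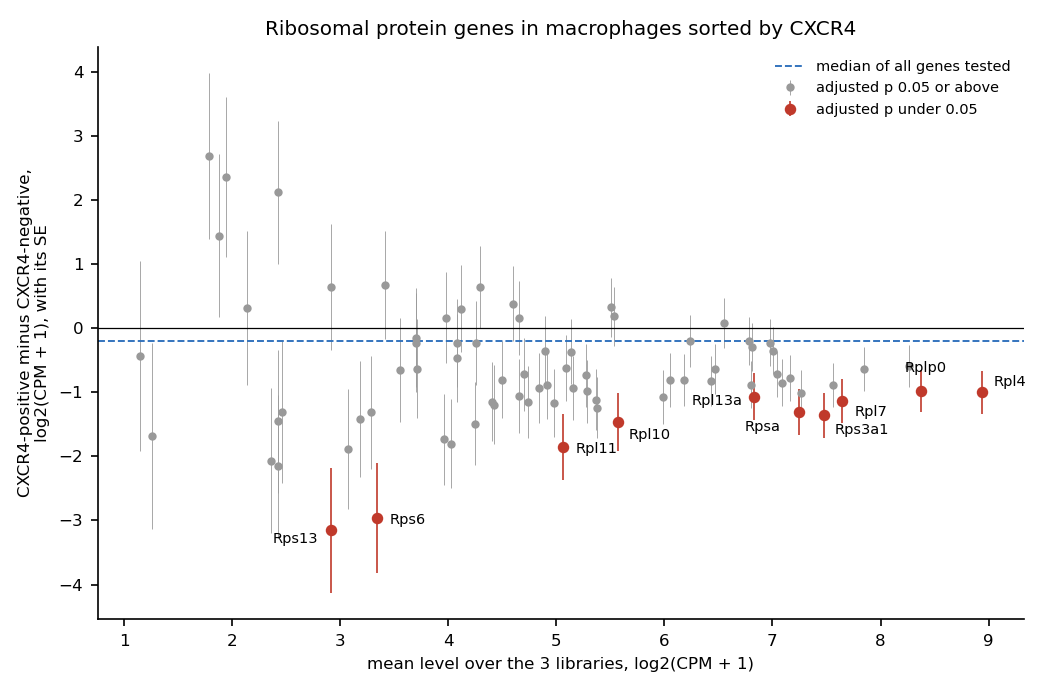
Change between CXCR4-positive and CXCR4-negative macrophages (log2(CPM + 1), vertical axis, with its SE) against mean level (log2(CPM + 1), horizontal axis) for the 79 members tested. The 10 genes in red passed the test and all lie below 0 and below the median of all genes (dashed, -0.20).

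The sort had 1 CXCR4-negative library and 1 residual degree of freedom, so the p-values rest on a spread taken from all genes through the mean-variance trend, and that library is assumed to vary like the others. The summed share gave an exact permutation p of 0.333, the smallest that 2 libraries against 1 allow; without the trend, and without the filter on low values, 0 members passed, and under median-ratio scaling 5 passed, with a median of -0.65. Cxcr4 mRNA itself was at 632 and 875 CPM in the CXCR4-positive libraries and at 772 CPM in the CXCR4-negative one, so it did not separate the fractions. The 8 macrophage markers summed to 6025 and 6740 CPM in the CXCR4-positive libraries and to 1770 CPM in the CXCR4-negative one, with none at 0, and the 3 dendritic cell markers to 328 and 383 CPM and to 1041 CPM. Their part in the lower ribosomal protein genes was not tested.

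Reads listed under pseudogenes bear on which of these genes can be named. Processed pseudogenes, intronless copies of mRNAs, are common for this family. The knockout table lists 98 named ribosomal protein pseudogenes, whose CPM summed to 0.544 to 0.665 times that of the members. In 30 of 45 gene families the pseudogenes summed to more than the parent, and in 26 of 43 families in the sort. Rps6 is one of them: in the sort its pseudogene had 109 and 239 CPM in the CXCR4-positive libraries and 242 CPM in the CXCR4-negative one, so that parent and pseudogene together had 118 and 241 CPM against 281 CPM. Rps13 with its 2 pseudogenes had 45.01 and 78.0 CPM in the CXCR4-positive libraries and 119 CPM in the CXCR4-negative one. Rpl10 with its 4 had 343 and 318 CPM and 500.2 CPM. With the pseudogenes added to their parents, a fit chosen after seeing the data, 10 members again passed as lower, against 3.43% of all genes, and 7 of them were the same. Rps6 (log2 change -0.73), Rps13 (-1.0) and Rpl10 (-0.60) no longer passed, and Rps7 (-1.47), Rps16 (-1.70) and Rpl18 (-1.504) did. The median log2 change of the 81 listed members was -0.81 alone and -0.70 with pseudogenes, and its SD over members 1.03 and 0.63. A sum can vary less than its parts in any case, and the part of shared reads in the smaller SD was not tested.

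**Figure D5:**
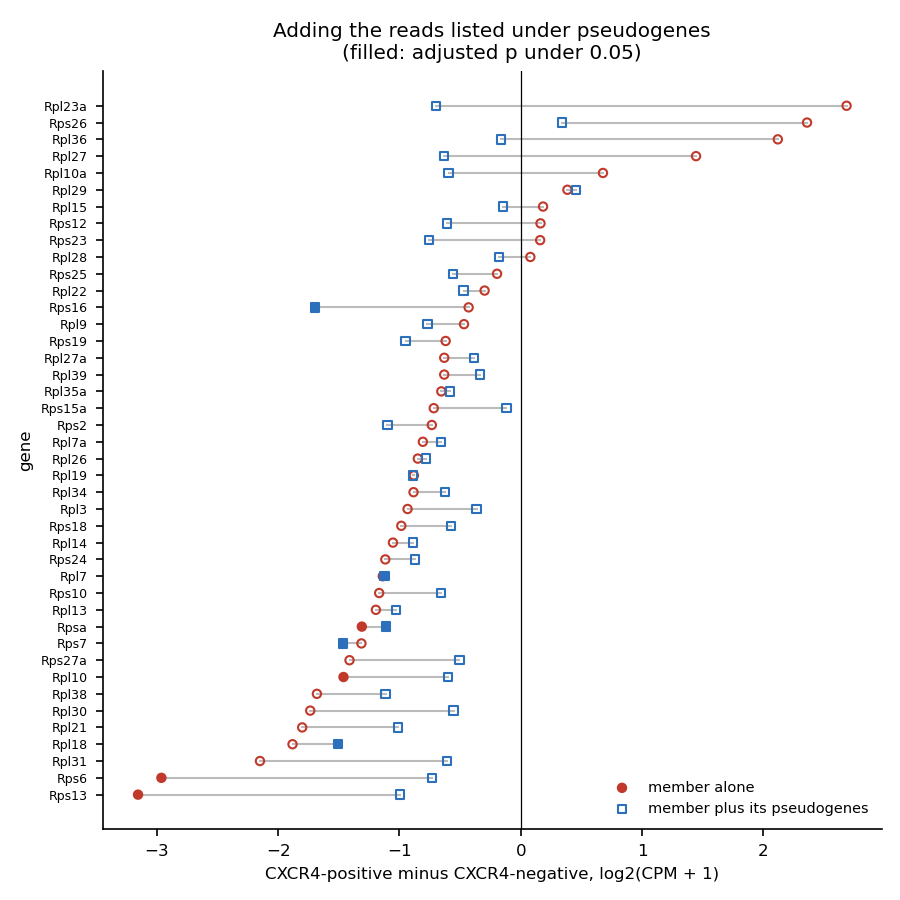
Change between CXCR4-positive and CXCR4-negative macrophages (log2(CPM + 1), horizontal axis) of 42 members with listed pseudogenes, for the member alone (red circles) and for the member plus its pseudogenes (blue squares), filled where the adjusted p was under 0.05. The squares span a narrower range than the circles: Rps6 is at -2.96 alone and at -0.73 with its pseudogene, and Rps13 at -3.16 alone and at -1.0 with its pseudogenes.

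The same sums in the knockout table gave 6 members lower in repeat 2, against 0.262% of all genes: the 3 called before and others that include Rpl10a and Rps25, while 0 members passed for either knockout. The coefficient of variation of the 45 families had a median of 51.5%, against 80.1% for their parents alone. It was 69.9% for the pseudogene sums alone and 77.4% for the 39 members with no listed pseudogene. Here too a sum can vary less than its parts in any case, and the part of shared reads was not tested. Rps26 and Rpl17, the lowest members per kilobase, had more CPM under their pseudogenes than under their own symbols. The Rps26 pseudogene had 9.19 to 76.2 CPM, beside 0 to 3.40 CPM for Rps26, and the 4 Rpl17 pseudogenes summed to 84.2 to 473 CPM, beside 0 to 7.72 CPM for Rpl17. In the P4 table, which lists 3 such pseudogenes, Rps26 stood at 114 FPKM in the library labelled Cxcl12 knockout and at 124 FPKM in the control.

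In culture, with 1 library per condition, neither the AKT inhibitor nor CXCL12 moved a member past the test. In a model with an effect of CXCL12 and one of the inhibitor, which leaves 1 residual degree of freedom, 0 of 81 members passed for the inhibitor (limma, adjusted p under 0.05), against 0.0866% of all genes, and 0 of 81 for CXCL12, against 0% of all genes. The model assumes that the agents do not interact, so its residual holds any interaction as well as noise between libraries. The median log2 effect of the inhibitor on members was 0.17, against -0.13 for all genes, and that of CXCL12 was -0.12, against -0.14, a direction that turned under quantile scaling (0.03). At an unadjusted p under 0.05 there were 5 members for the inhibitor, beside 10.2% of all genes. Rps25 (2.26), Rps3a1 (1.32), Rpl22 (1.25) and Rpl41 (0.85) were higher, beside 2.91% of all genes, and Rpl29 (-3.39) was lower, beside 7.26%. Rps25, known for its role in initiation from viral internal entry sites, was at 90.5 CPM with CXCL12 and the inhibitor, 55.2 CPM with the inhibitor, 29.3 CPM with CXCL12 and 6.44 CPM without either (adjusted p = 0.488). It was higher with the inhibitor in both pairs, and also higher with CXCL12 in both pairs. For CXCL12 there were 3 members, beside 6.03% of all genes: Rpl23a (-2.32), Rps3 (-1.28) and Rps15a (-1.22), all lower (3.94% of all genes, against 2.09% higher). The ends of the ranking for CXCL12 included Rpl39 (-2.89, SE 1.79) and Rps27rt (-2.59, SE 1.84), and Rps19bp1 (3.27, SE 1.78), Rpl26 (1.69, SE 1.22) and Rpl36al (1.62, SE 0.99). For the inhibitor they included Rpl29 and Rpl14 (-2.995, SE 1.63), and Rps25, Rps26 (2.07, SE 1.69) and Rpl5 (1.82, SE 0.89).

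The single pairs of culture libraries have no replicate check and were read by a fold of 1.5. With the inhibitor alone, 37 of 82 members were higher and 13 lower than in the untreated culture, against 32.3% and 33.3% of all genes, and the median log2 ratio was 0.52. In the presence of CXCL12, the inhibitor gave 20 higher and 34 lower of 81 members, against 25.7% and 47.7% of all genes, with a median of -0.20. That median was 0.15 over members of at least 10 CPM and -0.09 under median-ratio scaling, so its direction depends on the low members included. In both inhibitor pairs 22 of 80 members had a ratio above 1 and 14 below 1, beside 23.1% and 30.5% of all genes. CXCL12 alone gave 28 higher and 19 lower of 83, against 30.3% and 28.6%, with a median of 0.33. In the presence of the inhibitor, CXCL12 gave 20 higher and 34 lower of 79, against 26.5% and 45.1%, with a median of -0.45. Among members of at least 10 CPM, the ratios with the inhibitor alone were among the lowest for Rps28 (-1.04) and Rpl13a (-0.84) and highest for Rpl36 (3.95), Rps27 (3.96) and Rpl27 (5.38) on the log2 scale. In the presence of CXCL12 those of the inhibitor ran from Rps7 (-4.93), Rplp2 (-4.22) and Rpl29 (-4.22) to Rps23 (2.67), Rpl18 (2.93) and Rpl5 (3.36). The log2 ratios with CXCL12 alone ran from Rpl5 (-1.91), Rpl39 (-1.71) and Rpl23 (-1.66) to Rps25 (2.02), Rpl15 (2.13) and Rpl26 (2.67). In the presence of the inhibitor those of CXCL12 ran from Rpl27 (-5.46), Rps27a (-5.32) and Rps7 (-4.95) to Rps26 (1.86), Rpl18 (2.34) and Rps19bp1 (4.90). The lowest and highest genes thus differed between the pairs with and without the other agent, as for Rpl5, which was at 75.1 CPM with both agents, 32.7 CPM with the inhibitor, 6.39 CPM with CXCL12 and 26.8 CPM in the untreated culture. These ratios leave out pseudogenes and copies. Rps27a with its 2 pseudogenes had 120 CPM with both agents and 112 CPM with the inhibitor. Rps26 with its pseudogene still differed, with 33.1 CPM and 8.34 CPM. Rps27 summed with Rps27rt had 38.1 CPM with the inhibitor and 9.55 CPM in the untreated culture. The library with both agents had 21 of 83 members under 1 CPM, 9 of them at 0, against 3 to 7 under 1 CPM in the other 3 libraries. Of all listed genes, 30.9% were at 0 in that library, against 12.4% to 19.7% in the other cultures. One of the 9 members was Rpl27, at 0 CPM with both agents, 43.0 CPM with the inhibitor, 5.36 CPM with CXCL12 and 0.0581 CPM in the untreated culture. Abundant members varied less: Rpl4 was at 431 CPM with both agents, 281 CPM with the inhibitor, 329 CPM with CXCL12 and 291 CPM without either, and Rplp0 at 106, 119, 110 and 71.2 CPM in the same order.

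In P4 basal cells the members were measured as FPKM, which are per kilobase of transcript. Of 83 members with at least 1 FPKM in either library, 60 were higher in the library labelled Cxcl12 knockout, beside 51.5% of all genes. The median log2 ratio of FPKM + 1 was 0.32 for members, against 0.03 for all genes. By a fold of 1.5, 17 members were higher and 6 lower, against 24% and 18.9% of 13146 genes. Rps3a was at 940 FPKM in the library labelled knockout and at 694 FPKM in the control, Rps6 at 157 and 93.1 FPKM, Rps13 at 149 and 86.2 FPKM, Rpl13a at 195 and 125 FPKM and Rplp0 at 335 and 308 FPKM. Rpl4, at 638 and 665 FPKM, and Rps4x, at 635 and 840 FPKM, stood the other way. The largest ratios were those of Rpl17 (1.44), Rps4y2 (1.41) and Rps21 (1.39), and the lowest those of Rps19bp1 (-2.27), Rpl37 (-1.35) and Rpl37a (-0.80). The Spearman rho over members was 0.943 in the 1 pair of P4 libraries, on FPKM. On CPM it was 0.728 to 0.936 between pairs of knockout-table libraries, 0.896 to 0.909 in the sort and 0.695 to 0.804 in culture. The P4 pair has 1 library per group, its depth is unknown, and the FPKM of all entries summed to 1.49e+07 in the library labelled knockout and 2.94e+07 in the control. The part of this scaling in the ratios was not tested.

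Other genes of the translation machinery were counted for comparison. Members of the group called other TOP mRNAs, which start with the same kind of tract and include Rack1, Tpt1, Eef1a1 and Eef2, passed the test in none of the 7 fitted comparisons (0 of 23 to 25). Their median log2 change was -0.38 in repeat 2 against repeat 1, beside 0.34 for all genes, and -0.54 in the CXCR4-positive libraries, beside -0.20. Rack1, a receptor protein bound to the small subunit, was at 452 and 572 CPM in the CXCR4-positive libraries and at 733 CPM in the CXCR4-negative one. Their median for the AKT inhibitor in culture was 0.33, beside -0.13, and Rack1 stood at 443 CPM with both agents, 412 CPM with the inhibitor, 346 CPM with CXCL12 and 230.5 CPM in the untreated culture. Ribosome biogenesis genes (0 of 38 to 40) passed in none of the comparisons, nor did genes of the mitochondrial ribosome (0 of 59 to 75), whose median was -0.71 in the CXCR4-positive libraries. In the CXCR4 sort, with its 1 CXCR4-negative library, 2 of 33 initiation factors passed as higher, a share near the 5.06% of all genes. The 2 were Eif4e, the cap-binding protein, and Eif1a. Eif4e was at 221 and 295 CPM in the CXCR4-positive libraries and at 85.9 CPM in the 1 CXCR4-negative library (log2 change 1.56). Eif1a was at 158 and 234 CPM and at 62.0 CPM (1.62). Among 19 kinases and regulators, Ddit4, an inhibitor of mTORC1, was lower in the CXCR4-positive libraries (4.31 and 4.12 CPM against 30.6 CPM, log2 change -2.60). Ribosomal protein pseudogenes taken singly fell in 5 of 60 cases in the CXCR4-positive libraries (Rpl17-ps3, Rpl9-ps6, Rpl9-ps7, Rps16-ps2 and Rps7-ps3; 3.4% of all genes were lower) and in 4 of 80 in repeat 2, beside 0.266% of all genes (Rpl10-ps3, Rpl17-ps9, Rps23-ps1 and Rps25-ps1). No gene of these 6 lists passed for either knockout or in culture. In culture Larp1, the repressor of tract-bearing mRNAs, was at 268 CPM with both agents, 265 CPM with the inhibitor, 250 CPM with CXCL12 and 265 CPM without either.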

How the data were processed

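Per the labels' protocols, total RNA was depleted of ribosomal RNA before library preparation. As tools the submitters' processing notes list Partek and STAR 2.7.8a, and as build hg38, a human one, while all symbols are mouse; counting and its handling of reads with several positions are not given in the sources used here. The deposited macrophage tables hold log2 values of CPM plus 0.0001, read from the values, and the deposited P4 table holds FPKM per the file headers. Low values were whole reads for 74.3% to 90.2% (up to 50 reads, tolerance 0.05 reads), so count tests were not used although the plan had foreseen them. Start positions matched GENCODE M21 for 99.5% of genes in the knockout and CXCR4 tables and 2.16% in the culture table.

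Fits were made in R 4.3.3 with limma 3.58.1, after adding 1 CPM and taking log2, on genes that reached 1 CPM in 2 or more libraries, with an empirical Bayes mean-variance trend and Benjamini-Hochberg adjustment over all genes. The prior degrees of freedom were 97.3 for the knockouts, 45.8 for the repeats, infinite for the sort and 13.3 in culture. The pseudocount understates changes of low genes. The fits were tested on simulated data with known changes. Ratios of single libraries had a pseudocount of 1 and were taken where the higher one reached 1 CPM or FPKM. Share tests were exact permutations, two-sided. The labels do not say that repeats are separate mice, so p-values outside culture measure the spread between libraries, which may be technical. In culture, without repeats, they rest on the residual of a model without interaction, pooled over genes. Python 3.11.15 was used for the rest. Sequences are RefSeq promoters and GENCODE M21 transcripts; paralogs were aligned globally.

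Named are members that passed, the 3 highest and 3 lowest per comparison among those of at least 10 CPM or FPKM, set paralogs and roles, the 3 highest and lowest in variation above 100 CPM, and list genes that passed; members with an unadjusted p under 0.05 and those shown for pseudogenes were added after their values were seen. The members and lists were chosen with earlier results of these data known. Pseudogenes were matched to parents by symbol. Some members and list genes are not reported here by name.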

Additional observations from a re-analysis of the deposited data

How the results depend on the processing

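The 0 calls for both knockouts, for their difference and for both agents in culture stayed at 0 under another pseudocount, no filter, median-ratio and quantile scaling, no trend and added pseudogenes. The 10 calls of the CXCR4 sort became 6 with a pseudocount of 0.1 CPM, 5 with median-ratio scaling and 0 with no filter or no trend. The 3 calls between repeats became 1 with a pseudocount of 0.1 CPM or quantile scaling, 0 without the trend and 6 with pseudogenes added. At a 2-fold limit, members past it numbered 29 for the inhibitor alone, 35 for CXCL12 added to the inhibitor and 6 in P4 cells. Leaving out 1 library at a time gave 0 to 1 calls for the Cxcr4 knockout (1 without the LysM-Cre control of repeat 2), 0 to 0 for the Cxcl12 knockout and for the difference, and 0 to 5 between repeats; the medians ran from -0.87 to 0.21, -0.13 to 0.15, -0.80 to 0.13 and -0.55 to -0.20. Without either CXCR4-positive library the sort's median was -0.95 to -0.61, with no test. The causes were not tested. Over all genes tested, same-numbered libraries deviated together only weakly (r of 0.0573 to 0.139), so the numbers were not taken as pairing. With the repeat as a replicate block the calls were 0 and the medians -0.19, 0.07 and -0.54. The SEs and intervals printed for the knockouts come from the fit without this block, so they include the difference between repeats. Spread between libraries, depth, and reads shared with pseudogenes and copies limit what single members show.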
